A study of Mus musculus with 28 samples.

Results

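The genes described here mark the medium spiny neurons of the striatum, the projection neurons that make up most of that structure. They were chosen by symbol: Drd1, Tac1 and Pdyn for the direct pathway, Drd2, Adora2a and Penk for the indirect pathway, and Ppp1r1b, Rgs9 and Pde10a, which both kinds of neuron use. These are 9 of the 20660 gene symbols that the array probes could be matched to, and they were covered by 13 of its 55681 probes. The brains came from male C57BL/6J mice aged 3 weeks with no treatment named in the labels. By Transcriptome Tomography, 1 frozen brain was cut along each plane and successive sections were pooled into fractions, 12 coronal, 6 horizontal and 10 sagittal. The RNA of each fraction was hybridised to 1 array. No position was repeated, and mouse and plane cannot be told apart. The labels and the study's methods give different widths for a fraction, so positions are fraction numbers. The label of coronal fraction 12 also names the fraction after it as pooled in.

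Medium spiny neurons receive glutamate from cortex and thalamus and dopamine from the midbrain, and send GABA to the pallidum and the substantia nigra. Neurons of the direct pathway carry the dopamine D1 receptor (Drd1), which raises cyclic AMP, and make the peptide precursors of substance P (Tac1) and dynorphin (Pdyn). Neurons of the indirect pathway carry the dopamine D2 receptor (Drd2), which lowers cyclic AMP, an adenosine receptor (Adora2a) that raises it, and the precursor of enkephalin (Penk). Both kinds use DARPP-32 (Ppp1r1b), an inhibitor of protein phosphatase 1 that cyclic AMP signalling switches on, Rgs9, which ends G protein signals, and Pde10a, a phosphodiesterase that breaks down cyclic nucleotides. Penk, Tac1, Pdyn and Drd2 are also well known from brain regions outside the striatum.

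Each level is the log2 spot signal relative to the 75th percentile of its array (0 is that percentile), for the probe of each gene with the highest mean over the 28 arrays. That percentile lay between 135 and 574 signal units, and was lowest in sagittal fraction 1. A level counts as measured where the scanner software marked the probe as well above background. Of the 28 fractions this held in all 28 for Tac1, Adora2a, Penk, Ppp1r1b, Rgs9 and Pde10a, in 26 for Drd2, in 25 for Drd1 and in 10 for Pdyn. Levels of different probes are not set against each other, since probes differ in brightness. A fraction holds many cell types, so fewer medium spiny neurons and less RNA per neuron cannot be told apart in it.

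The start regions of 6 of the 9 genes were in the RefSeq promoter table of build GRCm38.p6. Those of 4 pathway genes are shown, since cyclic AMP is the messenger that the receptors of both pathways act on. Each line gives the 250 bases before a RefSeq transcription start, 5′ to 3′ on the strand of the gene, and capitals mark TGACG or its reverse complement CGTCA, the half-site of the cyclic AMP response element.
Drd1 chr13:54055659-54055908 (minus strand): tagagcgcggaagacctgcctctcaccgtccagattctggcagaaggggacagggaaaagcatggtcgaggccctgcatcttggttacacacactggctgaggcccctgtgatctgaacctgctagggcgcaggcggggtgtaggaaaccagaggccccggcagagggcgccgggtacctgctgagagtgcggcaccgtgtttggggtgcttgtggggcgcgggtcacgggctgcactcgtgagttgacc
Tac1 chr6:7554811-7555060 (plus strand): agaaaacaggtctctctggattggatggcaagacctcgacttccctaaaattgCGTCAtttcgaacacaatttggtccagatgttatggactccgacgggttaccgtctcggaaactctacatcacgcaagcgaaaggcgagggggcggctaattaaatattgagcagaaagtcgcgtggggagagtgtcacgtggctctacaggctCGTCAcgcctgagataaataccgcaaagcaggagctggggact
Pdyn chr2:129699939-129700188 (minus strand): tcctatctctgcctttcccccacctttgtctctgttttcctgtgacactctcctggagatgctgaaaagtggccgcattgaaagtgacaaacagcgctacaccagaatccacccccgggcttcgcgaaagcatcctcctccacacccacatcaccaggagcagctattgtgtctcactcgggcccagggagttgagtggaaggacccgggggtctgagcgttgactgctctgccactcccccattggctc
Drd2 chr9:49340153-49340402 (plus strand): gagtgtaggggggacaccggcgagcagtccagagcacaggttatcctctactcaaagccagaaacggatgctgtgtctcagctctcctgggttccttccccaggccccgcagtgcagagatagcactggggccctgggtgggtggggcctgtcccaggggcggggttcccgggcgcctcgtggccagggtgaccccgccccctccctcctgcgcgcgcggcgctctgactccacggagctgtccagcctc
Only the Tac1 sequence held the half-site, at 2 places that start 197 and 43 bases before the transcription start. Over both strands the half-site was found in 17.8% of 32851 such start regions in the table, and the full element TGACGTCA in 1.55%. The full element was in none of the 9 start regions of the 6 genes. A match here is a run of letters and not a site shown to be bound.

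To ask where along the caudal to rostral axis these genes are used, the coronal series was read first. Its fraction 1 held the highest mean of a hindbrain gene list (4.85 log2 above the series mean) and its fraction 12 the highest mean of an olfactory bulb list (5.02). All 9 genes had their highest level in fraction 8 (5 genes) or fraction 9 (4 genes), where 15.9% of the 32364 tested probes had theirs. The range from the lowest to the highest fraction had a median of 4.64 log2 over the 9 genes, against 1.38 over all tested probes. With the dim levels of Drd1 and Pdyn at their bound the median of the 9 was 3.89.

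Drd1, the D1 receptor, ranged widely along the coronal series. Its level was -5.97 in fraction 2, had a median of -1.78 and reached 1.77 in fraction 8 and 1.82 in fraction 9. It was not well above background in fractions 1 to 3, so the highest level was at least 86.5-fold above fraction 3, the fraction with the lowest bound. With normexp background correction, which adds an offset of 50 to each signal, the range was 22.4-fold. From fraction 4 onward it was measured in every fraction, at -2.26 in fraction 4, 0.41 in fraction 7, -0.75 in fraction 10 and -2.57 in fraction 12.

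Tac1, the substance P precursor, was well above background in every coronal fraction. Its level was 1.07 in fraction 12, had a median of 3.40 and was 5.47 in fraction 8 and 5.71 in fraction 9, a 25.0-fold range. Fractions 8 and 9 were the only fractions within 1 log2 of its highest. A second low stood at the caudal side, with 1.62 in fraction 3 against 3.56 in fraction 4.

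Pdyn, the dynorphin precursor, was dim in most coronal fractions. It was measured in fractions 6 (-4.43), 7 (-3.64) and 9 (-0.89), and was not well above background in the other 9. Fraction 9 was at least 14.8-fold above fraction 5, the fraction with the lowest bound, and 3.85-fold above it with normexp. In fraction 8, where Drd1 and Tac1 were close to their highest, Pdyn read -4.26 and was not well above background.

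Among the indirect-pathway genes, Adora2a, the adenosine receptor, had the widest coronal range. It lay between -2.29 and -1.84 in fractions 1 to 5, stepped to 0.30 in fraction 6, and reached 3.32 in fraction 8 and 3.13 in fraction 9. The range was 48.8-fold, and 26.9-fold with normexp. Rostral of these fractions it read 0.08, -0.07 and -0.21, above every fraction from 1 to 5.

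Drd2, the D2 receptor, varied less along the series than Adora2a. Its level was -4.15 in fraction 12, had a median of -3.35 and was -1.32 in fraction 8 and -1.26 in fraction 9, a 7.42-fold range (3.24-fold with normexp). Its caudal end was not its lowest, with -2.43 in fraction 1. In fraction 5, where a list of midbrain dopamine neuron genes had its highest mean (1.56 log2 above the series mean), Drd2 read -3.32. Taken singly, the genes of that list were highest in fractions 1, 4, 5, 9 or 12. The largest rise of a list gene in fraction 5 was 4.75 log2.

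Penk, the enkephalin precursor, had a coronal range of 2.83 log2, or 7.13-fold. It read 4.32 in fraction 5, had a median of 5.84 and read 7.16 in fraction 8 and 7.14 in fraction 9. The caudal fractions 1 and 2 stood at 6.00 and 6.11, above fraction 10 (5.36). Its lowest level thus lay between a caudal and a striatal high.

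The 3 genes of both pathways were each highest in fraction 8. Ppp1r1b, the DARPP-32 gene, read 3.58 in fraction 12, had a median of 5.15 and read 7.23 in fraction 8. Rgs9 read -0.11 in fraction 3, had a median of 1.92 and read 5.37 in fraction 8, a 44.5-fold range. Pde10a read 0.91 in fraction 12, had a median of 1.61 and read 4.50 in fraction 8, a 12.0-fold range. All 3 were higher in fraction 8 than in fraction 9, by 0.28, 0.05 and 0.41 log2. No position was repeated, so these steps have no error of their own.

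**Figure D1:**
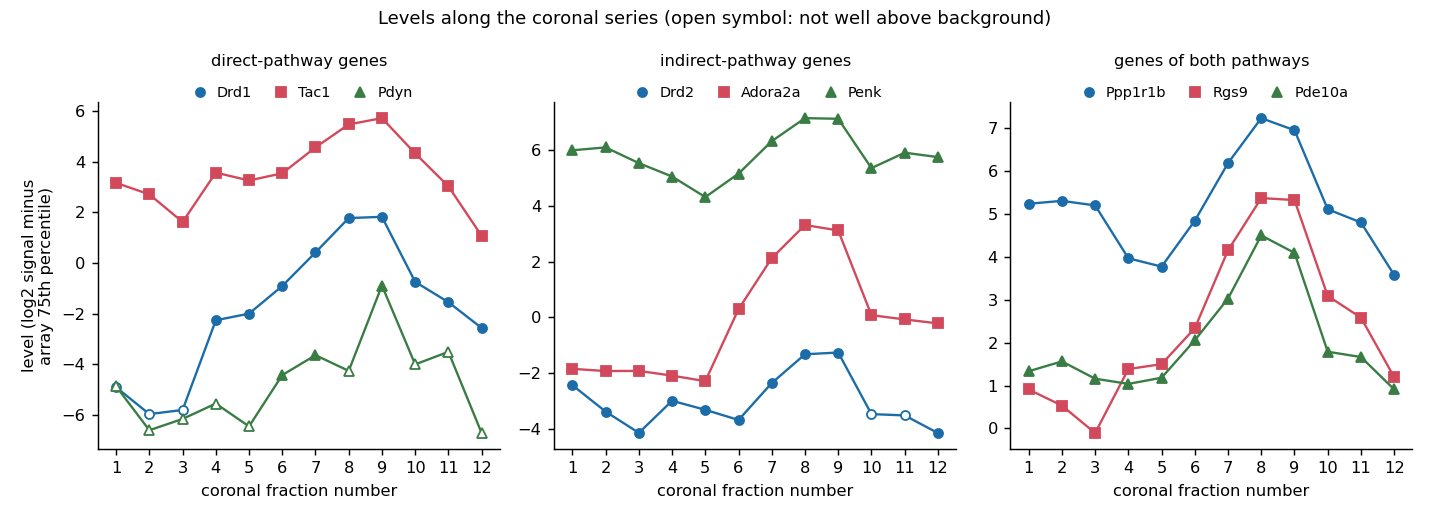
Level of each gene (log2 signal minus the array's 75th percentile, vertical axis) in the 12 coronal fractions (horizontal axis), with 1 array per point, filled symbols where the probe was well above background and open symbols where it was not. All 9 genes are highest in fraction 8 or 9, Pdyn has a single high point of -0.89 in fraction 9, and the heights of different genes are not comparable.

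The position trend was tested by the limma F-test of a smooth curve over the fraction number, adjusted over all tested probes. In the coronal series 8 of the 9 genes passed, against 33.7% of tested probes. Adjusted p was 0.000351 for Rgs9, 0.000662 for Drd1, 0.00132 for Tac1, 0.00274 for Adora2a, 0.00424 for Pde10a, 0.00543 for Ppp1r1b, 0.0208 for Pdyn and 0.0292 for Drd2. Penk did not pass at 0.0598. The Drd2 call was lost with the array median (0.0584), with quantile normalization (0.0622) and without any 1 of fractions 2, 7, 8, 9, 11 or 12 (0.0518 to 0.0885). The Pdyn call was lost without fraction 9 (0.0547), and Penk passed with normexp (0.0438) or without fraction 10 (0.0187). A curve with 1 degree of freedom fewer left 3 genes past the threshold, when 38.5% of tested probes passed. Fractions 1 and 2, 3 to 10, and 11 and 12 lay on different slides. With the slide as an added term only Rgs9 passed (adjusted p 0.0256), when 0.745% of tested probes did. Within fractions 3 to 10, on 1 slide, 6 of 9 passed, when 12.9% of tested probes did, and the 3 that did not were Tac1, Pdyn and Drd2 while Penk did (0.0163).

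The horizontal series gives the dorsal to ventral axis, with a cerebral cortex list highest in fraction 1 (1.19 log2 above the series mean) and a hypothalamus list in fraction 6 (4.53). Of the 9 genes, 6 were highest in fraction 4 and 2 in fraction 5, where together 25.5% of tested probes were highest. The 2 were Penk and Pdyn, and with normexp Pdyn was highest in fraction 6, where it was dim. Tac1 was highest in fraction 6, by 0.10 log2 over fraction 5. With the array median as scaling, or with normexp, fraction 6 was below fraction 5, with differences of -0.62 and -0.05 log2. Levels in fractions 1 and 2, the dorsal end, were the lowest of the series for every gene but Pdyn. The share of all tested probes with this order was not counted, so it is a description and not a trait of these genes.

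Of the direct-pathway genes, Drd1 read -2.60 in fraction 1, had a median of -0.36 and read 0.53 in fraction 4. Its range was 8.76-fold, 3.87-fold with normexp and 14.4-fold with the array median. Tac1 read 2.15 in fraction 1, 4.27 in fraction 4, 4.84 in fraction 5 and 4.94 in fraction 6, a 6.91-fold range. Pdyn lay between -4.41 and -3.37 and was not well above background in fractions 1 and 6.

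Of the indirect-pathway genes, Adora2a read -1.75 in fraction 1, had a median of 0.81 and read 1.63 in fraction 4. Its range was 10.4-fold, 5.46-fold with normexp and 17.1-fold with the array median. Drd2 read -4.02 in fraction 2 and -1.59 in fraction 4, and Penk 4.51 in fraction 2 and 6.59 in fraction 5. In these genes fractions 3 to 6 were above fractions 1 and 2, an order not counted over all tested probes. The genes of both pathways had the same shape, with Rgs9 between 1.05 and 4.52, Pde10a between 0.63 and 3.36 and Ppp1r1b between 4.53 and 6.28.

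In the horizontal series 4 of the 9 genes passed the test, against 15.8% of tested probes. These were Tac1 (adjusted p 0.0169), Drd1 (0.0215), Rgs9 (0.0383) and Adora2a (0.0424). Pde10a stood at 0.0579 by the probe used and at 0.0360 by its other tested probe. The series had 6 arrays, and without fraction 3 or without fraction 4 the count was 0, as it was for all tested probes. With the array median it was 8, when 59.8% of tested probes passed, and with normexp 8, when 28.0% did. A curve with 1 degree of freedom fewer gave 0 of 9 and 0.00309% of tested probes. All 6 arrays lay on 1 slide.

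The sagittal series ran from 1 side of the brain through the midline to the other, with the hypothalamus list highest in fractions 5 and 6 (2.23 and 2.17 log2 above the series mean). A pair of highs, 1 on each side, was seen for these genes. In the 8 genes measured in all of fractions 3 to 8, which leaves out Pdyn, fractions 3, 4, 7 and 8 were each above both midline fractions. This held for 12.6% of tested probes. The mean of fractions 3, 4, 7 and 8 was above that of fractions 5 and 6 by 0.65 (Penk) to 2.39 log2 (Adora2a) in these 8 genes, with a median of 1.40.

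Adora2a read -2.54 in fraction 1, 2.43 in fraction 3, a mean of -0.44 over fractions 5 and 6, 1.90 in fraction 8 and -2.22 in fraction 10. Its range was 31.4-fold, and 10.7-fold with normexp. Drd2 had its highs of -1.69 in fraction 3 and -1.70 in fraction 8, with -3.33 in fraction 6, though with normexp it was highest in fraction 10. Penk read 6.64 in fraction 3, 5.70 in fraction 6 and 6.25 in fraction 8.

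Drd1 read -2.42 in fraction 1, 0.95 in fraction 3, -1.52 in fraction 6 and 0.10 in fraction 7. Tac1 read 2.43, 4.64, 3.61 and 4.26 in the same fractions, with 4.35 in fraction 8. Pdyn was measured in fractions 2 to 4 alone, at -4.05 to -3.80, and its readings on the other 7 arrays were not well above background. Rgs9 read 4.95 in fraction 3 and 4.33 in fraction 8, Pde10a 3.85 and 2.99, and Ppp1r1b 6.63 and 6.47. Fraction 8 minus fraction 3 lay between -0.87 (Drd1) and -0.002 log2 (Drd2) in the 8 genes measured in both. These arrays lay on different slides, with a 75th percentile of 476 signal units in fraction 3 and 269 in fraction 8. The share of all tested probes below 0 was not counted, so the sign is not a result about these genes.

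**Figure D2:**
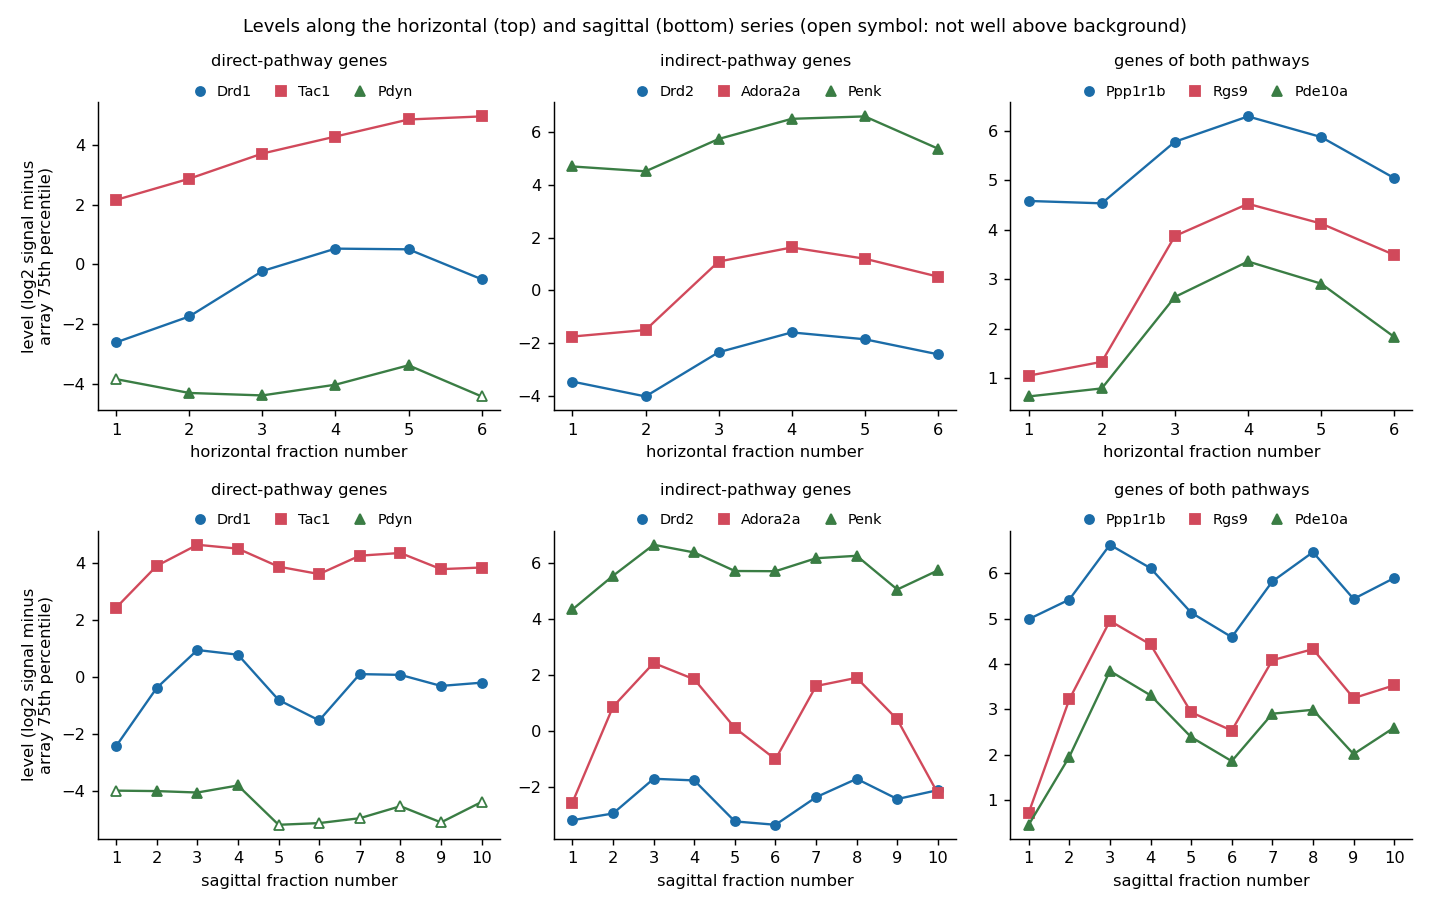
Level of each gene (log2 signal minus the array's 75th percentile) in the 6 horizontal fractions (top row) and the 10 sagittal fractions (bottom row), with 1 array per point and open symbols where the probe was not well above background. In the bottom row the 8 genes other than Pdyn are higher in fractions 3, 4, 7 and 8 than in fractions 5 and 6, Pdyn has open symbols from fraction 5 on, and in the top row Tac1 reads 4.84 and 4.94 in fractions 5 and 6, an order that turns with the array median or normexp.

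None of the 9 genes passed the sagittal position test (0 of 9 by limma, against 14.7% of tested probes). An unadjusted p under 0.05 was found for 0 of the 9 genes and for 10661 of the 32364 tested probes. Adjusted p lay between 0.168 and 0.811. That test fits a smooth curve with 3 degrees of freedom over the 10 fractions. Such a curve has too few bends to follow a pair of highs with a low between them. For Adora2a its highest point lay in fraction 5, next to the midline. The count of 0 therefore does not bear on the pair of highs described above. A test across the 5 mirror pairs of fractions (1 and 10, 2 and 9, 3 and 8, 4 and 7, 5 and 6) was added after the data were seen. By this limma test 0 of 9 passed, as did 0% of tested probes, and unadjusted p was under 0.05 for 3 genes and 5406 probes. The genes were Adora2a (unadjusted p 2.8e-05 by limma, adjusted p 0.126), Ppp1r1b (0.0149, 0.232) and Drd2 (0.0347, 0.271). Without fraction 10 Adora2a (0.0459) and Rgs9 (0.0359) passed, when 0.776% of tested probes did. Without fraction 2 Adora2a passed (0.0062), when 16.2% did, and with the array median as scaling Adora2a passed (adjusted p 5.6e-05), when 3.46% did.

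The sides were compared by limma as fractions 6 to 10 minus 1 to 5, within mirror pairs. No gene passed (0 of 9, as did 0% of tested probes), with 1 gene and 1408 probes at an unadjusted p under 0.05. That gene was Pdyn, at -0.61 log2 with a standard error of 0.24 (unadjusted p 0.037 and adjusted p 0.995 by limma), which was dim on all 5 arrays of the second side. Differences of the other 8 genes lay between -0.40 (Adora2a, standard error 0.25) and 0.29 log2 (Rgs9, standard error 0.50). Fractions 1 to 4 and 5 to 10 lay on different slides, so side and slide cannot be fully told apart.

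The pathways were compared by centring each gene on its mean within a series and taking the mean of the 3 direct genes minus the mean of the 3 indirect genes in each fraction. Any factor common to all probes of an array cancels in this difference. It was negative in coronal fractions 1 to 3 and 12, where indirect genes were relatively higher, and positive in fractions 4 to 7 and 9 to 11. The lowest values were -1.60 in fraction 2 and -1.32 in fraction 3, and the highest 1.16 in fraction 9 and 1.15 in fraction 10. With normexp these were -0.50, -0.57, 0.39 and 0.69, and the extremes lay in fraction 12 (-0.96) and fraction 5 (0.72). In fraction 10 the direct gene was the higher of the pair in all 9 pairings of a direct with an indirect gene, and in fractions 2, 3 and 12 in 1 of 9. In each of these 4 fractions 3 of the pairings use Pdyn, which was not well above background there, and Drd1 was dim too in fractions 2 and 3, as was Drd2 in fraction 10.

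In fraction 8, at the top of most profiles, the difference was -0.11. Pdyn was not well above background there, and without it the difference was 0.67. In fractions 1 to 3 neither Drd1 nor Pdyn was well above background. Without Pdyn the differences there were lower, at -1.35, -1.80 and -1.82 against -0.83, -1.60 and -1.32 with it. Dim levels were then set to the lowest signal measured as well above background on their array, a choice made after the data were seen. The difference with all 6 genes was then -0.79 in fraction 2, 0.79 in fraction 9, 0.95 in fraction 10 and -0.91 in fraction 12. These 4 fractions kept their sign, and in fraction 7 it turned from 0.36 to -0.01. The same step turned horizontal fraction 5 from 0.04 to -0.02 and sagittal fraction 9 from -0.03 to 0.48. Under the other scalings and background correction tried, the sign changed in coronal fractions 7 and 11, where the lowest values were -4.5e-05 and -0.01, in horizontal fraction 5 and in sagittal fractions 5 and 9. As a measure of probe error alone, on the same RNA and array, the SD of the difference between paired probes of the same gene had a median of 0.22 log2 over the coronal fractions and a 90th percentile of 0.47 over 2792 genes. With normexp background correction the span from the lowest to the highest coronal fraction was 1.68 log2 in place of 2.77. No test was made of this difference, since its genes were chosen by name and each position has 1 array.

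In the horizontal series the difference lay between -0.56 in fraction 4 and 0.64 in fraction 2. Without Pdyn, dim in fractions 1 and 6, the lowest was -0.57 in fraction 1, which had been 0.10, and the highest 0.55 in fraction 6, which had been 0.21. In the sagittal series it lay between -0.66 in fraction 8 and 0.81 in fraction 10. It was negative in sagittal fractions 3, 4, 7 and 8, the fractions of the lateral highs, and in fraction 8 the indirect gene was the higher in all 9 pairings, of which 3 use Pdyn, not well above background there. Without Pdyn the difference was -0.50 in fraction 8 and turned from 0.66 to -0.10 in fraction 1. Without Adora2a the sagittal range fell from 1.47 to 0.85 log2, so that 1 gene carried much of it.

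**Figure D3:**
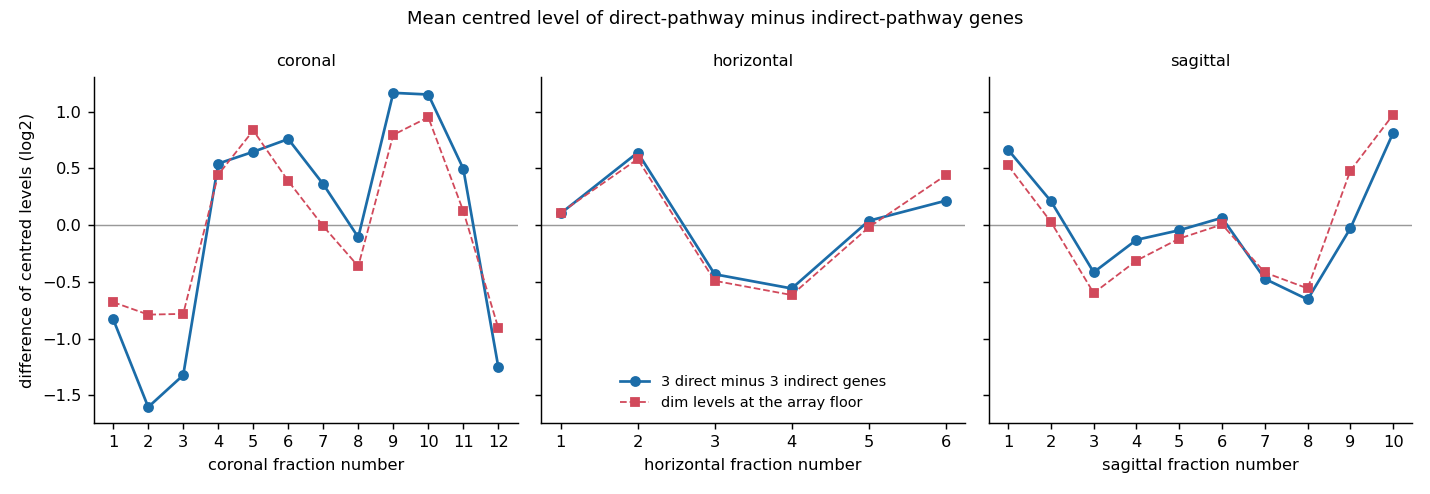
Mean centred level of Drd1, Tac1 and Pdyn minus that of Drd2, Adora2a and Penk (log2, vertical axis) by fraction number in each series, as measured (solid line, circles) and with dim levels set to the array floor (dashed line, squares). The difference is lowest in coronal fraction 2 (-1.60) and highest in coronal fraction 9 (1.16), and setting dim levels to the floor moves fraction 2 to -0.79.

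Pairs of genes were then compared over the 28 fractions after centring within series, as a description and with no test, since neighbouring fractions of a brain are alike. The median Pearson r was 0.889 among the 3 genes of both pathways, 0.763 among the indirect genes, 0.649 among the direct genes and 0.624 between the pathways. Without Pdyn the direct value was 0.810, for Drd1 and Tac1, and the median between the pathways was 0.709. Between pathways the values ran from 0.434 to 0.822. The medians within the direct and within the indirect pathway both lay inside that span.

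For each gene the 3 symbols with the most similar profile by Pearson r over the 28 centred fractions were listed. For Drd1 they were Gpr6 (0.928), Rgs9 (0.926) and Lrrc10b (0.920). Gpr6, an orphan receptor known from indirect-pathway neurons, thus headed the list of a direct-pathway receptor. For Tac1 they were Rgs9 (0.890), the kappa opioid receptor gene Oprk1 (0.851) and Gnal (0.851), which encodes the G protein that couples the D1 and adenosine receptors of the striatum to adenylyl cyclase. For Pdyn no symbol passed 0.85, and Adra2c (0.738), Sumo3 (0.737) and Dclk3 (0.734) came first.

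For Drd2 the list held the retinoic acid receptor gene Rarb (0.867), Pde10a (0.863) and the adenylyl cyclase gene Adcy5 (0.862). For Adora2a it held Rgs9 (0.910), Rasd2 (0.887) and Pde10a (0.881), and for Penk Rarb (0.897), Pde10a (0.892) and the neurotrophic factor gene Gdnf (0.882), the last measured on 19 of the 28 arrays. For Ppp1r1b it held Gnal (0.913), Pde10a (0.889) and Rarb (0.874). For Rgs9 it held Pde10a (0.940), Drd1 (0.926) and Rasd2 (0.916), and for Pde10a Rarb (0.959), Rgs9 (0.940) and Inf2 (0.927). The mean of the direct genes was closest to Rgs9 (0.921), Adcy5 (0.905) and Gpr6 (0.898), and that of the indirect genes to Rarb (0.953), Pde10a (0.952) and Rgs9 (0.933). Rgs9 beside Tac1 was read from a probe other than the one used above. So was Pde10a beside Drd2, Penk and the mean of the indirect genes. All these profiles share arrays and their scaling.

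A further 28 genes known from striatal projection neurons were read from the same fits. All 28 were matched, and 27 were bright enough to be tested. In the coronal series 25 of 27 passed, against the 33.7% of all tested probes, and 18 of 27 were highest in fraction 8 or 9, as were 15.9% of tested probes. The 2 that did not pass were Gnb5 and Grik3. In the horizontal series 10 of 27 passed (15.8% of tested probes) and in the sagittal series 8 of 27 (14.7%).

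The direct-pathway list was read gene by gene. Isl1, a transcription factor of direct-pathway neurons and of cholinergic neurons, was highest in fraction 8 (-0.99), at least 13.8-fold above its lowest (adjusted p 0.00224). The muscarinic receptor gene Chrm4 was highest in fraction 9, at least 2.90-fold above its lowest (0.0130), and Plxnd1, a semaphorin receptor, 2.29 log2 with fraction 9 highest (0.00185). Slc35d3 was highest in fraction 12 (0.36), with fraction 8 next (0.30), and lowest in fraction 3 (-2.95, adjusted p 0.0210). Ebf1 fell from 1.93 in fraction 1 to -2.55 in fraction 10 (0.000392).

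Of the indirect-pathway list, Gpr6 read 1.13 in fraction 8 and -3.22 in fraction 2, a 20.4-fold range (adjusted p 0.00201). Sp9, a transcription factor of interneurons of the olfactory bulb as well, was highest in fraction 12 (0.10) and at least 26.3-fold above its lowest (0.000378). Grik3, a kainate receptor subunit, had a range of 2.05 log2 with fraction 12 highest and did not pass (0.124). Gpr52 was well above background in 0 of 12 coronal fractions and was not tested.

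Of the lists for cyclic AMP signalling, transcription factors and channels, the widest coronal ranges were those of Six3, a homeobox factor of indirect-pathway neurons, and Arpp21, a phosphoprotein regulated by cyclic AMP. Six3 read 1.21 in fraction 8 and was at least 52.7-fold above its lowest (adjusted p 0.00164). Arpp21 read 5.46 in fraction 8 and -0.26 in fraction 2, a 52.7-fold range (adjusted p 0.00112). The narrowest ranges belonged to Gnb5, the partner of Rgs9 in its complex, at 0.75 log2 (0.293), and Rasgrp2 at 1.41 log2 with its highest level in fraction 1 (0.0372). Rgs9 itself had a range of 5.48 log2.

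**Figure D4:**
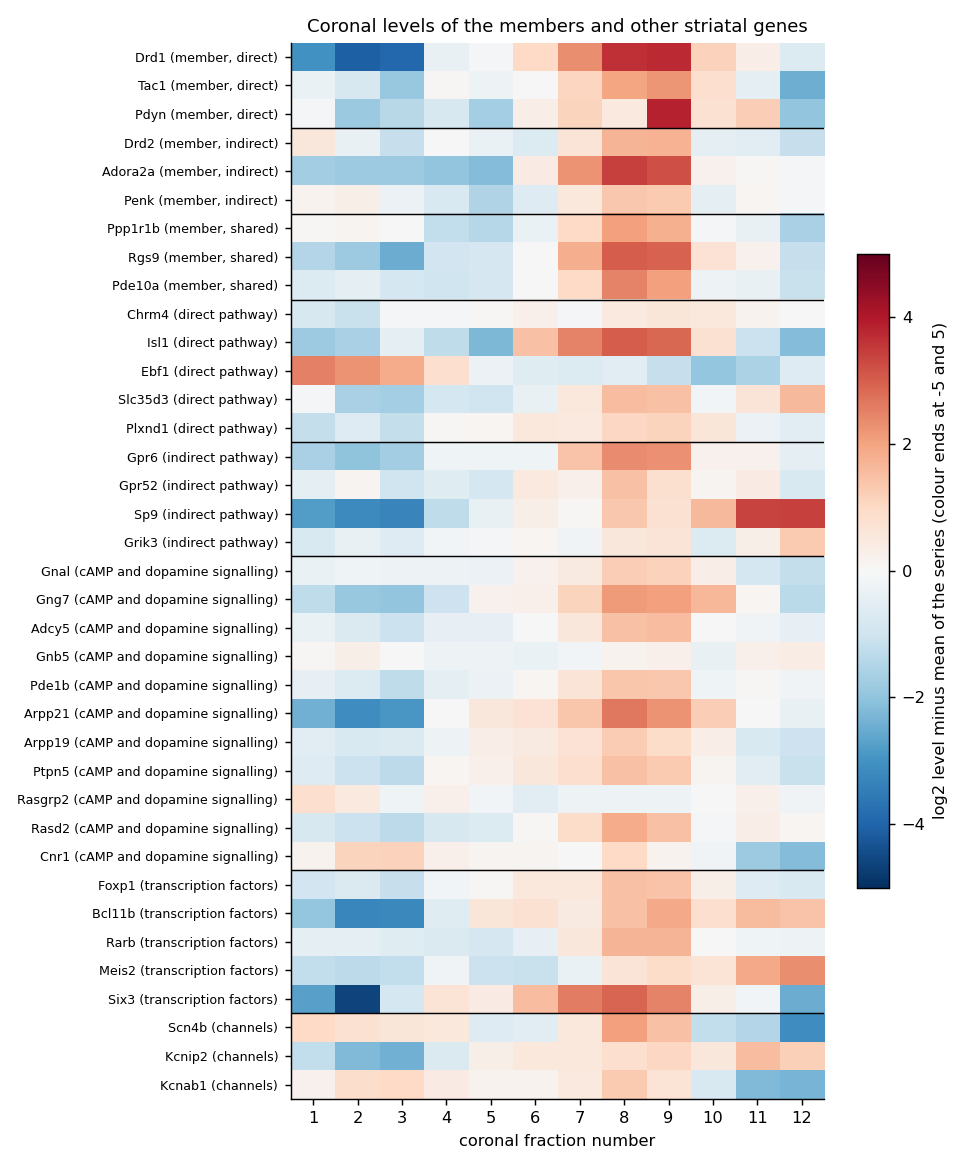
Coronal levels of the 9 genes and the further 28 striatal genes, each as log2 level minus its own mean over the 12 fractions (colour, with ends at -5 and 5), by fraction number (horizontal axis) and gene, grouped by list. Most rows are red in fractions 8 and 9, while Ebf1 is red in fractions 1 to 3 and Sp9 in fractions 11 and 12.

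Other regions and cell types share these fractions. In the coronal series a list of striatal cholinergic interneuron genes (4 genes) was highest in fraction 8 at 2.14 log2 above its mean, a pallidum list (4 genes) in fraction 8 at 0.93 and a cerebral cortex list (6 genes) in fraction 9 at 1.34. The hypothalamus list (7 genes) was highest 1 fraction more caudal, in fraction 7 at 4.08. Taken singly, the cholinergic genes were highest in fractions 2, 3 or 8, and the pallidum genes in fractions 1, 2, 6 or 8. The largest rise of a cholinergic gene in fraction 8 was 5.11 log2, for a gene well above background in 5 of 12 fractions. The pallidum gene highest there was well above background in 4 of 12. Over the 6 horizontal fractions a choroid plexus list had a Pearson r of 0.966 with the mean of the 9 genes, and a midbrain dopamine neuron list 0.884. Over the coronal fractions the same lists had 0.091 and -0.452, and over the sagittal fractions 0.713 and 0.199. The part of such cells in the levels above was not tested.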

How the data were processed

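RNA of 28 brain fractions was labelled with Cy3 and hybridised to 1-colour Agilent arrays, 1 per fraction. The authors deposited scanner files with intensity values and flags from Feature Extraction 10.5.1.1 (background already taken off per spot), and a table of log2 values, which matched log2 of the processed signal less the array's 75th percentile but for an offset of 0.00111 to 0.00758 per array. The per-spot flags (outlier, saturated, well above background) are other values per the file headers, which name build mm9.

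Outlier-flagged spots were dropped, the spots of a probe averaged, and log2 of the deposited intensity minus the 75th percentile of the array was used. The 32364 tested probes passed the well-above-background flag in 1 or more fractions of every series and had no missing value. Between 24822 and 34240 probes per array were well above background, and 0 spots were saturated. On 1 array the median SD of repeated spots was 0.0547 to 0.0795 log2, and the number of arrays limits the precision. Through accessions and a RefSeq table of GRCm38.p6, used for names, 48.9% of probes got a symbol. Promoter sequences came from the RefSeq table of the same build.

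Position trends were tested with limma 3.58.1 in R 4.3.3, by an F-test of a natural cubic spline over fraction numbers (2 degrees of freedom in the horizontal series, otherwise 3). Scatter about that curve is the only error, and p-values describe these 3 brains. Sides were compared with mirror pairs as a block. Adjusted p-values are Benjamini-Hochberg values over all tested probes, with a threshold of 0.05, and the fits were tested on simulated data. Where the lowest level was not well above background, a fold is a lower bound. Each dim level was set to itself or to the dimmest well-above-background probe of its array, whichever was higher, and the fold is against the fraction that was then lowest. Alternatives were the array median, quantile normalization, normexp with an offset of 50, the authors' log2 values, no filter, another spline, the slide, other probes and leaving out each fraction. Normexp was run on the median spot and background signals, so it changed the signal used as well as the background correction. The genes, lists and tests were chosen with earlier results of these data known. The text names the 9 genes and, for the coronal series alone, the listed direct and indirect genes. It also names the 2 widest and 2 narrowest coronal ranges of the other lists, and the 3 symbols closest to each gene by Pearson r. One gene of the lists is not reported here, and the rule and the counts leave it out.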

Additional observations from a re-analysis of the deposited data

Results flagged for a closer look

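Tac1 in sagittal fraction 1 stood apart from the other 9 fractions of its series. It read 2.43, the nearest other fraction read 3.61, and the gap was 0.534 of the whole range, where 0.466 marks a sample far from the others among 10. This was 1 of 18 sets examined (9 genes in the horizontal and sagittal series), and for independent values chance would give about 1 in 20, or 0.9. Neighbouring fractions of a brain and sets that share arrays are not independent, so that rate does not strictly hold here. Fraction 1 was also the lowest sagittal fraction for Drd1, Adora2a, Penk, Rgs9 and Pde10a. The array of this fraction was the dimmest of the 28 by its 75th percentile (135). Its part in the value was not tested.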

How the results depend on the processing

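With 1 array per position, no value has a replicate error, and signal over background limits Pdyn, Drd1 and Drd2. The count of genes with a coronal trend (8) was 1 with the slide as an added term (0.745% of tested probes passed) and 3 with 1 spline degree of freedom fewer (38.5%), and 6 to 9 when each fraction was left out in turn (24.5% to 34.4%). The horizontal count (4) was 8 with the array median (59.8%), 8 with normexp (28.0%), 0 with 1 degree of freedom fewer (0.00309%), and 0 to 7 when each fraction was left out. Without fraction 1 it was 7 (6.84%), without fractions 3 or 4 it was 0 (0%), and without fractions 5 or 6 it was 2 (17.8% and 4.13%). The sagittal count (0) was 2 with normexp (44.2%), Pdyn (adjusted p 0.00836 by limma) and Penk (0.045), and 0 when any 1 fraction was left out. The count across mirror pairs (0) was 1 with the array median (Adora2a, 3.46%) and 0 to 2 when each fraction was left out, with 2 without fraction 10 (0.776%). The comparison of sides gave 0 with the mirror pair as replicate block and 0 with no replicate block. Fractions of different planes that share a number share no position, so no pairing across planes was made. The median range of the 9 genes moved from 4.64 log2 to 4.31 (array median) and 3.89 (normexp) in the coronal series, from 2.73 to 3.07 and 2.15 in the horizontal series, and from 2.31 to 3.05 (array median) and 2.85 (quantile normalization) in the sagittal series. The array median moved the median tested probe by up to 0.52 (coronal), 1.06 (horizontal) and 1.51 log2 (sagittal) between the arrays of a series. All 9 genes stayed highest in coronal fraction 8 or 9 under each scaling, normexp and the authors' values. Horizontal fraction 4 or 5 was highest in 8 genes, and in 9 with the array median. The range of direct minus indirect (coronal 2.77, horizontal 1.20, sagittal 1.47) was 1.68, 0.94 and 0.95 with normexp. With dim levels at the array floor the coronal range was 1.86. The coronal range was 4.02 without Tac1, 3.05 without Pdyn, 3.93 without Adora2a and 2.19 without Penk. The horizontal range was 1.67 without Drd1, 0.89 without Adora2a and 1.46 without Penk. The sagittal range was 1.92 without Drd1, 2.11 without Drd2, 0.85 without Adora2a and 2.05 without Penk. The pathway genes had no second probe. The causes were not tested. Under the alternatives there were 873 values of single genes. Of these, 760 kept their side of the threshold or moved by less than the SD between probes of a gene. A call was lost in 41 and gained in 22, 50 moved and 0 reversed. The trend and mirror-pair tests and the ranges have no sign and could not reverse, and the comparison of sides had no call to reverse. The alternatives include the authors' values, which differ from those used by a small offset per array.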

Other observations

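Caudal of the striatal fractions the genes differed in the order of their levels. In coronal fractions 1 to 3 Penk had a mean level of 5.89 against 4.69 in fractions 4 and 5, and Ppp1r1b 5.25 against 3.87. Adora2a had -1.90 against -2.19, and Pde10a 1.35 against 1.11. Tac1 went the other way, with 2.49 against 3.41, as did Rgs9 with 0.44 against 1.44 and Drd2 with -3.32 against -3.15. Drd1 was well above background in 0 of the 3 caudal fractions and in both of fractions 4 and 5. A cerebellum list was highest in fraction 3, at 3.91 log2 above its series mean. These differences were not tested.

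Probes of 1 gene did not all report the same profile. Rgs9 had a second probe for the same transcript as the first (coronal adjusted p 0.000404 by limma) and 1 more probe named for another RefSeq transcript, which was well above background on 18 of 28 arrays and did not pass in the coronal (0.388), horizontal (0.542) or sagittal series (0.988). Of the 3 probes of Pde10a, 1 was well above background on 0 of 28 arrays and was not tested.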
